A study of Mus musculus with 9 samples.

Results

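The genes described here are 10 genes that make prostaglandins, break them down or receive their signal, out of 56748 genes in the deposited count table. They were taken by symbol: the cyclooxygenases Ptgs1 and Ptgs2, the prostaglandin E synthases Ptges, Ptges2 and Ptges3, the prostacyclin synthase Ptgis, the dehydrogenase Hpgd, and the prostaglandin E2 (PGE2) receptors Ptger1, Ptger2 and Ptger4. RNA was sequenced from wild-type mouse knee chondrocytes, the cells of cartilage, freed with collagenase D and cultured. There were 3 control libraries, 3 from cells stimulated with interleukin-1β (IL-1β) and 3 from cells given IL-1β plus recombinant SFRP5, a secreted protein of the frizzled-related family that binds Wnt ligands. The sources used here state neither dose nor time, no group had SFRP5 without IL-1β, and the labels do not say whether the libraries of a group came from separate animals or cultures. The p-values therefore rest on a spread between libraries that could be purely technical.

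Prostaglandins are lipid signals made from arachidonic acid, which phospholipases release from membranes. A cyclooxygenase turns arachidonic acid into an unstable intermediate, and terminal synthases turn this into PGE2, prostacyclin and the other prostanoids. Cells export the products, which act through G protein-coupled receptors until they are taken up and oxidised, with Hpgd doing the inactivating step. In cartilage, induction of cyclooxygenase-2 and of PGE2 by interleukin-1 is a classic part of the inflammatory response.

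The promoters of the cyclooxygenases and of Ptges are shown first, because Ptgs2 and Ptges were the members with the largest increases after IL-1β while Ptgs1 passed the test in no comparison. The sequences are from RefSeq (GRCm38.p6), and are read 5′ to 3′ on the strand of the gene, with position 1 at the annotated start. Each of the first 3 lines runs from -100 to -1, and the last is a 24-base stretch of Ptgs2 from position 8 to 31. Capitals mark matches to the motifs searched.
Ptgs2, chr1:150099931-150100030, + strand: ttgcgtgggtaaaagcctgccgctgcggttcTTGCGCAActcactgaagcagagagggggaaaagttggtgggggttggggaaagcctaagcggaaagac
Ptges, chr2:30903298-30903397, - strand: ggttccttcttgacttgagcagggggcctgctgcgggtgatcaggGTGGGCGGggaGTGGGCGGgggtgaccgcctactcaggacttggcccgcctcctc
Ptgs1, chr2:36230326-36230425, + strand: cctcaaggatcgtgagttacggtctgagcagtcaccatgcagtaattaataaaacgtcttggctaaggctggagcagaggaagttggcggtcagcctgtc
Ptgs2, chr1:150100038-150100061, + strand: ccactaCGTCACGTGgagtccgct

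Motifs were searched on both strands in windows of 250 bases before and 50 after each start. A promoter entry was found for 8 of 10 members, the others being Ptgis and Ptger1. The Ptgs2 window held a C/EBP motif (TTGCNNAA) at -69, which 10.8% of all 32851 promoter windows hold. After its annotated start it held a CRE half-site (TGACG, on the other strand, in 20.8% of windows) at 14, overlapping an E-box (CACGTG, in 7.15%) at 17. The Ptges window held an EGR motif (GTGGGCG, in 7.97%) at -55 and again at -44, each overlapping an Sp motif (GGGCGG, in 35.7%). The EGR motif was also found at -49 and 39 in the window of Hpgd, which fell with IL-1β. Sp motifs were found at -170 in Ptgs2, at -50 in Hpgd, and in the windows of Ptges3 and Ptger4, 4 in each. The remaining matches were an E-box at -77 in Ptges2, a CRE half-site at 12 in Ptges3 and a C/EBP motif at 40 in Ptger2. The Ptgs1 window matched none of the motifs searched, which also included AP-1 (TGANTCA, in 7.81%) and the NF-κB motif (in 8.46%). Among the members' windows, the NF-κB motif was found in that of Ptges3, at -87. A match describes letters in this window and is not a binding site.

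Library totals ran from 15795985 to 20688963 counts, and 3 counts equalled 0.135 to 0.195 CPM (counts scaled by library size to a common total) in a library. All 16 chondrocyte markers on the list used had counts in every group. Their summed level was 118354 to 121007 CPM in the controls, 27234 to 28573 with IL-1β and 32800.2 to 34192 with SFRP5. Of these markers 0 rose and 16 fell with IL-1β (median log2 change -1.59), where 38.5% and 40.4% of all tested genes did. With SFRP5 added 8 rose and 1 fell (median 0.11), where 15.6% and 15.7% of all genes did. In bulk RNA, fewer cells of a type and less RNA per cell cannot be told apart. Macrophage markers, whose cells can also make prostaglandins, summed to 18.0 to 19.3 CPM in the controls, 55.6 to 60.0 with IL-1β and 37.9 to 43.3 with SFRP5. Of 15 such markers, Fcgr1 was at 0 with IL-1β and Cx3cr1 with SFRP5. The defining markers Ptprc (0.0940, 0.240 and 0.120 CPM in the controls, IL-1β and SFRP5) and Adgre1 (0.325, 0.397 and 0.386 CPM) were low in all groups. Of 6 macrophage markers with enough counts to be tested, 4 rose and 1 fell with IL-1β (median log2 change 1.40), where 38.5% and 40.4% of all tested genes did. With SFRP5 added 0 rose and 3 fell (median -0.36), where 15.6% and 15.7% of all genes did. Of 10 neutrophil markers 7, 7 and 6 were at 0 in the 3 groups, among them Ly6g and S100a9 in every library, and the rest summed to 0 to 0.152, 5.89 to 7.46 and 4.93 to 7.22 CPM. The tested neutrophil markers, Camp and S100a8, both rose with IL-1β (median log2 change 7.79), and neither passed with SFRP5 added. Of 8 mast cell markers 6, 5 and 7 were at 0 (summed level 0 to 0.101, 0.121 to 0.547 and 0.118 to 0.197 CPM), and of 9 endothelial markers 2, 3 and 4 (8.12 to 9.95, 5.07 to 6.01 and 4.72 to 6.05 CPM). The endothelial sum follows Erg, which fell with IL-1β, while the other tested endothelial markers, Cdh5 and Tek, rose. Synovial fibroblast markers, all 9 with counts, summed to 276 to 287, 917 to 975 and 1185 to 1215 CPM. With IL-1β, Pdpn and Prg4 rose and carry that sum, whereas 4 of 7 tested fell and the median log2 change was -0.67. The part of these cell types in the results was not tested.

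Levels are CPM with the mean ± SD of 3 libraries, and changes are log2 fold changes ± standard error (SE) from edgeR's quasi-likelihood test over all genes, with Benjamini-Hochberg adjusted p and a threshold of 0.05. Of the 10 members 9 had enough counts to be tested, Ptger2 being the exception. After IL-1β 5 tested members rose, namely Ptgs2, Ptges, Ptges2, Ptges3 and Ptger4, and 3 fell, namely Ptgis, Hpgd and Ptger1. Ptgs1 did not pass. Of all 15502 genes tested 78.9% passed in this comparison, 38.5% upward and 40.4% downward, so that 8 of 9 members is near the background. The median log2 change was 0.96 over the tested members and -0.03 over all genes tested. When SFRP5 was added to IL-1β, 3 members fell (Ptgs2, Ptges and Ptges3) and 4 rose (Ptges2, Ptgis, Hpgd and Ptger1), where 31.3% of all genes passed, 15.6% upward and 15.7% downward. The median was 0.33 over the members and 0.01 over all genes. Against control, cells with IL-1β and SFRP5 had the same 5 members higher and the same 3 lower, where 76.3% of genes passed, 37.3% upward and 39% downward.

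**Figure D1:**
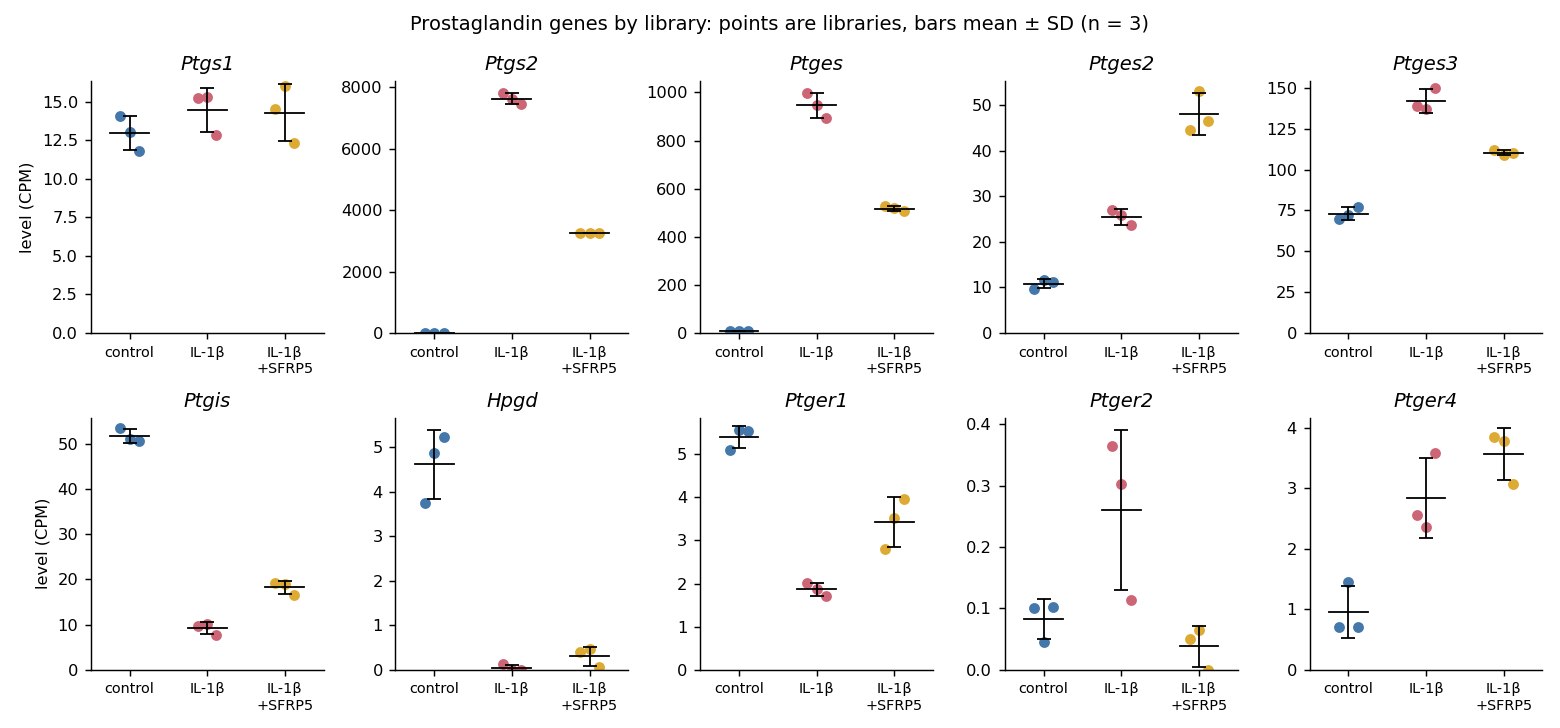
Level in CPM (vertical axis, linear, own scale per gene) of each of the 10 genes in control, IL-1β and IL-1β with SFRP5 libraries; points are libraries, bars the mean ± SD of 3. Ptgs2 and Ptges stand near the axis in control, peak with IL-1β and lie between with SFRP5, Ptgis, Hpgd and Ptger1 show the opposite order, and Ptges2 climbs through all 3 groups.

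The cyclooxygenases take the first committed step. Ptgs2 (ENSMUSG00000032487, chromosome 1), the inducible cyclooxygenase-2, stood at 15.5, 14.2 and 12.8 CPM in the control libraries, at 7819.6, 7609 and 7467 CPM with IL-1β, and at 3250.1, 3251 and 3254 CPM with SFRP5. No library of a group reached the range of another group. It rose 539-fold with IL-1β (log2 change 9.07 ± 0.05, adjusted p = 1.84e-35). It then fell 2.35-fold when SFRP5 was added (log2 change -1.23 ± 0.03, adjusted p = 2.16e-19). The SFRP5 libraries kept 42.5% of the difference between the control and IL-1β means and were still 229.7-fold above control (log2 change 7.84 ± 0.05, adjusted p = 1.34e-34).

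Ptgs1 (ENSMUSG00000047250, chromosome 2), the cyclooxygenase present in most resting cells, was at 14.0, 13.0 and 11.8 CPM in the controls, 15.3, 15.3 and 12.8 CPM with IL-1β and 14.5, 16.002 and 12.3 CPM with SFRP5. The 3 groups overlapped. The log2 difference was 0.15 ± 0.11 for IL-1β against control (adjusted p = 0.194) and -0.02 ± 0.11 for SFRP5 added to IL-1β (adjusted p = 0.924). Without IL-1β library 3, the lowest of its group, the first of these passed the threshold at 0.26 (adjusted p = 0.0432). Per kilobase of the gene length in the table, the pair started level. Control cells had 3.34 ± 0.285 CPM per kb of Ptgs1 and 3.09 ± 0.291 of Ptgs2, so that Ptgs2 made up 48.1% ± 0.220 of their sum. It made up 99.8% ± 0.0184 with IL-1β and 99.5% ± 0.0665 with SFRP5.

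The Ptgs2 locus holds a pair of long noncoding RNA genes named as opposite-strand transcripts, which do not overlap Ptgs2 in the table. Ptgs2os (ENSMUSG00000097028) lies 67 bases upstream of Ptgs2, and had 0.152, 0.316 and 0.305 CPM in the controls, 13.1, 8.78 and 11.6 CPM with IL-1β and 4.68, 5.07 and 3.60 CPM with SFRP5. It rose 43.3-fold with IL-1β (log2 change 5.39, adjusted p = 1.55e-15). That change rests on 16 counts over the control libraries, against 564 with IL-1β, so no SE is given for it. Ptgs2os fell 2.505-fold with SFRP5 (log2 change -1.32 ± 0.17, adjusted p = 1.23e-06). Ptgs2os2 (ENSMUSG00000097754), 50815 bases beyond the other end, had 0 counts in control and 1638 over the IL-1β libraries, at least 666-fold higher with 3 counts put in place of 0. It fell from 32.4 ± 0.712 to 10.1 ± 0.280 CPM with SFRP5 (log2 change -1.67 ± 0.09, adjusted p = 8.09e-13). So all 3 transcripts of the locus were higher with IL-1β and lower again with SFRP5. The sources used here do not say whether counting used strand, so reads that run from one of these genes into the next cannot be assigned with certainty.

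The prostaglandin E synthases finish PGE2. Ptges (ENSMUSG00000050737, chromosome 2), the membrane-bound inducible synthase that works with cyclooxygenase-2, was at 9.50, 9.03 and 9.39 CPM in the controls, 998, 946 and 894 CPM with IL-1β and 526, 519.6 and 507 CPM with SFRP5. The 3 ranges were apart. It rose 102-fold with IL-1β (log2 change 6.67 ± 0.06, adjusted p = 5.15e-32) and fell 1.83-fold with SFRP5 (log2 change -0.87 ± 0.04, adjusted p = 4.85e-15), keeping 54.3% of the difference between the control and IL-1β means. Per kilobase, there were 6.93 ± 0.221 Ptgs2 for 1 Ptges with IL-1β and 5.39 ± 0.105 with SFRP5, against 1.31 ± 0.121 in control, and the libraries of the 3 groups did not overlap in this ratio.

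Ptges3 (ENSMUSG00000071072, chromosome 10) encodes p23, a co-chaperone of HSP90 that is also described as the cytosolic PGE synthase. It was at 69.6, 72.0 and 77.3 CPM in the controls, 139, 137 and 150.2 CPM with IL-1β and 112, 109 and 110.4 CPM with SFRP5, again with no overlap. It rose 1.95-fold with IL-1β (log2 change 0.96 ± 0.05, adjusted p = 2.04e-15) and fell 1.29-fold with SFRP5 (log2 change -0.36 ± 0.05, adjusted p = 1.64e-06). Its level is uncertain because a processed pseudogene copy, Ptges3-ps, drew 26.4 ± 2.01, 38.4 ± 1.74 and 35.3 ± 1.41 CPM in the 3 groups, and reads may be split between them. The pseudogene row rose with IL-1β (log2 change 0.54 ± 0.07, adjusted p = 7.87e-08) and did not pass with SFRP5 (-0.12 ± 0.07, adjusted p = 0.185).

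Ptges2 (ENSMUSG00000026820, chromosome 2), a membrane-associated synthase, rose in both steps. Its level was 9.75, 11.7 and 11.2 CPM in the controls, 26.9, 25.9 and 23.6 CPM with IL-1β and 44.5, 53.1 and 46.6 CPM with SFRP5. Each group lay above the one before. It rose 2.34-fold with IL-1β (log2 change 1.22 ± 0.09, adjusted p = 4.18e-12) and a further 1.89-fold with SFRP5 (log2 change 0.91 ± 0.08, adjusted p = 8.51e-10). Per kilobase the mixture of the 3 synthases turned over: Ptges made up 6.34% ± 0.374 of their sum in control, 77.7% ± 1.60 with IL-1β and 68.9% ± 0.357 with SFRP5, and Ptges3 87.9% ± 0.395, 20.7% ± 1.66 and 26.1% ± 0.431.

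**Figure D2:**
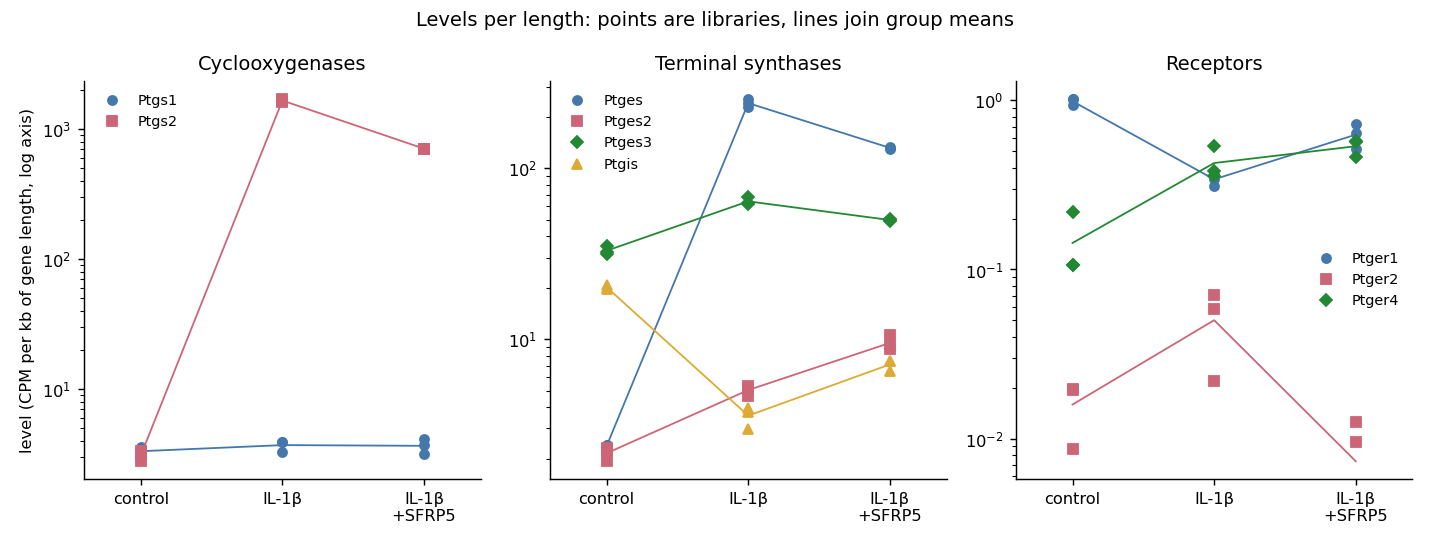
Level per kilobase of gene length (CPM per kb, log axis) of cyclooxygenases, terminal synthases and receptors in the 3 groups; points are libraries and lines join the group means, and the SFRP5 library with 0 Ptger2 counts has no point. Ptgs2 leaves Ptgs1 behind after starting level with it, and Ptges passes Ptges3 and Ptgis.

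The prostacyclin synthase Ptgis (ENSMUSG00000017969, chromosome 2) uses the same intermediate as the PGE synthases. It was at 53.5, 51.0 and 50.6 CPM in the controls, 9.66, 10.2 and 7.63 CPM with IL-1β and 19.1, 19.0 and 16.6 CPM with SFRP5, without overlap. It fell 5.65-fold with IL-1β (log2 change -2.50 ± 0.09, adjusted p = 5.29e-19) and rose 1.99-fold with SFRP5 (log2 change 1.00 ± 0.10, adjusted p = 1.09e-08). Per kilobase there was 0.118 ± 0.00313 Ptges for 1 Ptgis in control, 68.2 ± 7.96 with IL-1β and 18.6 ± 1.15 with SFRP5. A lncRNA that overlaps Ptgis on the other strand, 1110018N20Rik, had 13, 256 and 221 counts over the 3 groups, against 3186, 461 and 962 for Ptgis. Smooth muscle and pericyte markers, all 8 with counts, summed to 987 to 1015 CPM in the controls. With IL-1β they summed to 181 to 196 CPM and with SFRP5 to 339 to 354, in the same order as Ptgis. Of 7 tested, 0 rose and 5 fell with IL-1β, where 38.5% and 40.4% of all tested genes did. With SFRP5 added 2 rose and 0 fell, where 15.6% and 15.7% of all genes did. The part of these markers in the Ptgis result was not tested.

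Hpgd (ENSMUSG00000031613, chromosome 8), the dehydrogenase that inactivates PGE2, had 3.74, 4.88 and 5.23 CPM in the controls, 0.122, 0 and 0 CPM with IL-1β and 0.394, 0.455 and 0.0590 CPM with SFRP5. This is 285 counts over the control libraries against 2 with IL-1β, 117 times lower (exact 95% interval 32.1 to 969, for counting error only) with an adjusted p of 4.46e-11. With SFRP5 there were 16 counts, which is 7.69 times the IL-1β level (interval 1.81 to 68.9). That increase passed the test (adjusted p = 0.0297), but the groups overlapped, since SFRP5 library 3 lay below IL-1β library 1. It no longer passed without IL-1β library 2 (adjusted p = 0.104) or 3 (0.108), or without SFRP5 library 1 (0.1095) or 2 (0.1003). Hpgd with SFRP5 was 15.2-fold below control (log2 change -3.90, adjusted p = 1.31e-09).

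The receptors read PGE2 at the cell surface and had low counts. Ptger1 (ENSMUSG00000019464, chromosome 8) encodes the EP1 receptor, which signals through calcium. It was at 5.10, 5.55 and 5.53 CPM in the controls, 2.00, 1.88 and 1.71 CPM with IL-1β and 2.81, 3.51 and 3.95 CPM with SFRP5, with the ranges apart. It fell 2.90-fold with IL-1β (log2 change -1.53 ± 0.20, adjusted p = 1.29e-07) and rose 1.84-fold with SFRP5 (log2 change 0.87 ± 0.21, adjusted p = 0.00257).

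Ptger4 (ENSMUSG00000039942, chromosome 15) encodes EP4, a receptor that raises cyclic AMP (cAMP). It was at 0.707, 1.44 and 0.711 CPM in the controls, 2.55, 2.36 and 3.59 CPM with IL-1β and 3.85, 3.77 and 3.07 CPM with SFRP5. Control libraries lay below all others, while the IL-1β and SFRP5 libraries overlapped. It rose 2.97-fold with IL-1β (log2 change 1.55 ± 0.29, adjusted p = 3.41e-05), and the difference with SFRP5 did not pass (0.33 ± 0.25, adjusted p = 0.349). The span of Ttc33 overlaps that of Ptger4 on the opposite strand. Ttc33 had 1284, 1581 and 1737 counts over the 3 groups, against 60, 144 and 188 for Ptger4. Whether their exons overlap was not examined, and without the strand setting reads from any shared sequence cannot be told apart.

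Ptger2 (ENSMUSG00000037759, chromosome 14), which encodes EP2, the other cAMP-raising receptor here, had 5 counts over the control libraries, 13 with IL-1β and 2 with SFRP5. By library this was 0.101, 0.0452 and 0.102 CPM, then 0.365, 0.303 and 0.114 CPM, then 0.0493, 0.0650 and 0 CPM. In a fit with no filter on low counts it passed in none of the comparisons (adjusted p = 0.231, 0.172 and 0.598 for IL-1β against control, SFRP5 added, and both against control), and with SFRP5 added its unadjusted p was 0.0397. By counts alone the SFRP5 libraries held 6.77 times less than the IL-1β libraries (interval 1.53 to 61.7). Per kilobase the order in control was Ptger1 (0.989 ± 0.0468), Ptger4 (0.144 ± 0.0639) and Ptger2 (0.0159 ± 0.00624). With IL-1β, Ptger4 (0.426 ± 0.0992) and Ptger1 (0.341 ± 0.0273) did not differ beyond their spread, and neither did they with SFRP5 (0.536 ± 0.0646 and 0.627 ± 0.106).

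**Figure D3:**
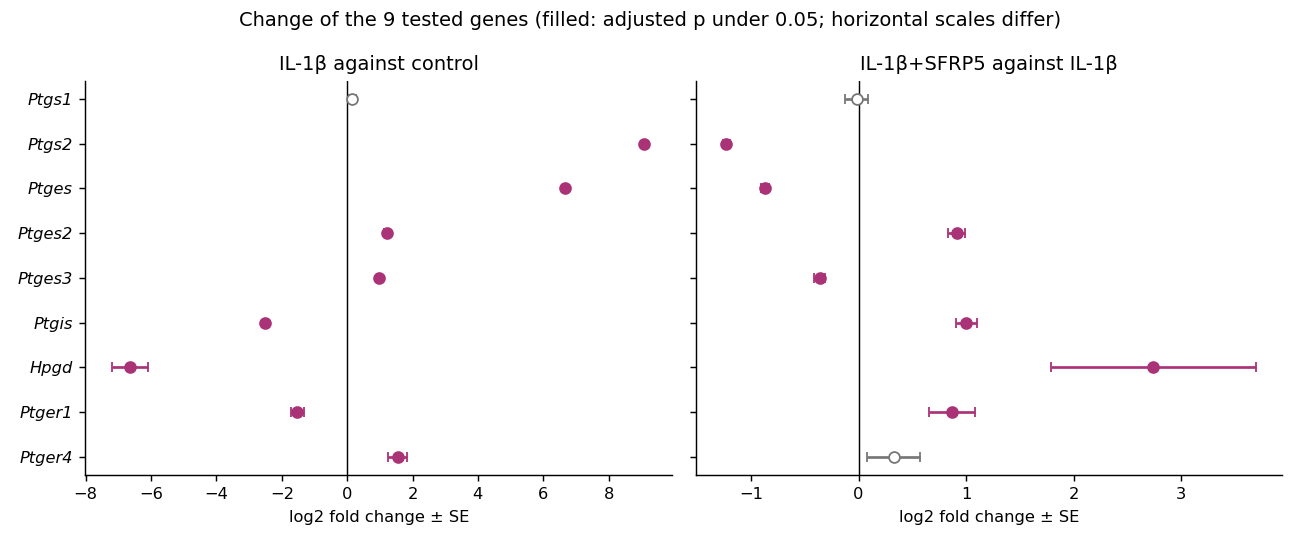
Log2 fold change ± SE (horizontal axes, of different scale) of the 9 tested genes for IL-1β against control and for SFRP5 added to IL-1β; filled points passed an adjusted p of 0.05. Ptgs2, Ptges and Ptges3 lie right of 0 in the first and left of it in the second, Ptgis, Hpgd and Ptger1 the reverse, and Ptges2 right of 0 in both; both comparisons use the same IL-1β libraries, and Hpgd rests on 2 counts with IL-1β.

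Because both contrasts use the IL-1β libraries, their values are given side by side and no relation between them is tested. CPM did not overlap between groups for 8 of 9 tested members in IL-1β against control, where 80% of all tested genes did not. With SFRP5 added, 6 of 9 did not overlap, where 40.8% of genes did not, and with both against control 8 of 9, where 78.2% did not.

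The rest of the pathway was read from lists, beside all tested genes, of which 38.5% rose and 40.4% fell with IL-1β. With SFRP5 added, 15.6% of all tested genes rose and 15.7% fell. Among genes that release arachidonic acid, 4 of 12 tested rose and 5 fell with IL-1β, with a median log2 change of 0.02. Pla2g4a, the calcium-activated cytosolic phospholipase that feeds cyclooxygenases, was at 17.8 ± 1.36 CPM in the controls, 229 ± 5.41 with IL-1β and 183 ± 6.18 with SFRP5. It rose 12.8-fold (log2 change 3.68 ± 0.06, adjusted p = 7.64e-27) and then fell 1.25-fold (log2 change -0.32 ± 0.05, adjusted p = 3.14e-06). The secreted phospholipase Pla2g5 fell with IL-1β from 3.10 ± 0.703 to 0.0797 ± 0.0933 CPM (adjusted p = 2.85e-09), and Faah, which hydrolyses fatty acid amides, from 36.2 ± 1.01 to 4.79 ± 0.416 CPM (adjusted p = 9.53e-19). With SFRP5, 2 of the 12 rose and 3 fell, median 0.14. Mgll, the monoacylglycerol lipase that is another source of arachidonic acid, rose in both steps, from 10.6 ± 0.873 to 22.6 ± 1.39 and then 37.5 ± 3.69 CPM. Pla2g6 fell from 17.5 ± 2.82 to 13.6 ± 2.24 CPM (adjusted p = 0.0188), and the third that fell, Pla2g2e, had 8 counts with IL-1β and 0 with SFRP5.

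Of 6 tested enzymes that make other prostanoids, IL-1β raised 3 and lowered 2 (median 0.16), where 38.5% of all tested genes rose and 40.4% fell. Akr1b8, an aldo-keto reductase, went from 8.83 ± 1.27 to 130.1 ± 9.68 CPM (adjusted p = 3.6e-24) and fell with SFRP5 to 49.9 ± 2.87 CPM (adjusted p = 5.76e-15). Cbr3, a carbonyl reductase, rose from 3.94 ± 0.524 to 8.96 ± 0.862 CPM and fell to 4.47 ± 1.03 CPM. The third that rose, Akr1b3, the aldose reductase that can make prostaglandin F, moved by 0.14 ± 0.06 and lost its call with upper-quartile scaling. Prxl2b, which also makes prostaglandin F, fell from 30.01 ± 2.07 to 6.48 ± 1.21 CPM (adjusted p = 7.97e-16), and Akr1b7 from 3.91 ± 0.665 to 0.451 ± 0.163 CPM (adjusted p = 2.63e-09). With SFRP5, 2 of the 6 rose (Prxl2b and Cbr1) and 3 fell (Akr1b8, Cbr3 and Akr1b3), median -0.56. Among all tested genes, 15.6% rose and 15.7% fell in that comparison. The prostaglandin D synthases Ptgds and Hpgds and the thromboxane synthase Tbxas1 had too few counts to be tested, with 1 to 16 counts over the libraries of a group.

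Of 11 tested genes of transport and later breakdown, 8 rose and 2 fell with IL-1β, where 38.5% of all tested genes rose and 40.4% fell, and the median log2 change was 1.54. With SFRP5 6 fell and 0 rose, where 15.7% of all genes fell and 15.6% rose, and the median was -0.28. With upper-quartile scaling the first count was 7 up and 3 down, and Zadh2 lost its upward call. Ptgr1, a reductase that acts on prostaglandins after Hpgd, rose from 9.07 ± 0.830 to 234 ± 13.9 CPM (25.8-fold, adjusted p = 1.12e-26) and fell 2.17-fold to 108 ± 8.09 CPM with SFRP5 (adjusted p = 2.3e-14). The exporters Abcc1 and Abcc4, of which Abcc4 carries PGE2 out of cells, rose 9.95-fold and 2.91-fold and fell 1.69-fold and 1.68-fold, each with an adjusted p of 2.61e-11 or lower. Slco2a1, the prostaglandin uptake transporter, named after its values were seen, was at 15.4 ± 0.829, 146 ± 2.12 and 97.0 ± 0.848 CPM in the 3 groups. It rose with IL-1β (log2 change 3.24 ± 0.05, adjusted p = 4.83e-26) and fell with SFRP5 (log2 change -0.59 ± 0.04, adjusted p = 7.62e-11). Slco4a1, a transporter of the same family, had 1 count over the control libraries and 363 with IL-1β, 443 times as much (interval 79.0 to 17534).

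Of the other prostanoid receptors and related genes, 5 of 8 could be tested. With IL-1β 3 rose and 2 fell, where 38.5% and 40.4% of all tested genes did. Ptger3, which encodes EP3, the PGE2 receptor that lowers cAMP, had 3 counts over the control libraries and 265 with IL-1β, 108 times as much (interval 36.5 to 526). Its libraries ran at 4.50, 6.24 and 5.01 CPM with IL-1β and 3.70, 3.64 and 4.01 CPM with SFRP5, a difference that did not pass (adjusted p = 0.089). Ptgir, the prostacyclin receptor, rose from 0.257 ± 0.0910 to 1.84 ± 0.167 CPM (adjusted p = 6.93e-07). Ptgfrn, a membrane protein that binds the prostaglandin F receptor, rose 4.26-fold to 405 ± 11.2 CPM. The prostaglandin F receptor itself, Ptgfr, fell with IL-1β from 2.82 ± 1.12 to 1.35 ± 0.291 CPM (adjusted p = 0.00162) and rose with SFRP5 to 3.36 ± 0.152 CPM (adjusted p = 0.000714). Pparg, a nuclear receptor for prostaglandin D metabolites, fell from 6.85 ± 0.298 to 2.30 ± 0.576 CPM and rose to 3.74 ± 0.421 CPM.

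**Figure D4:**
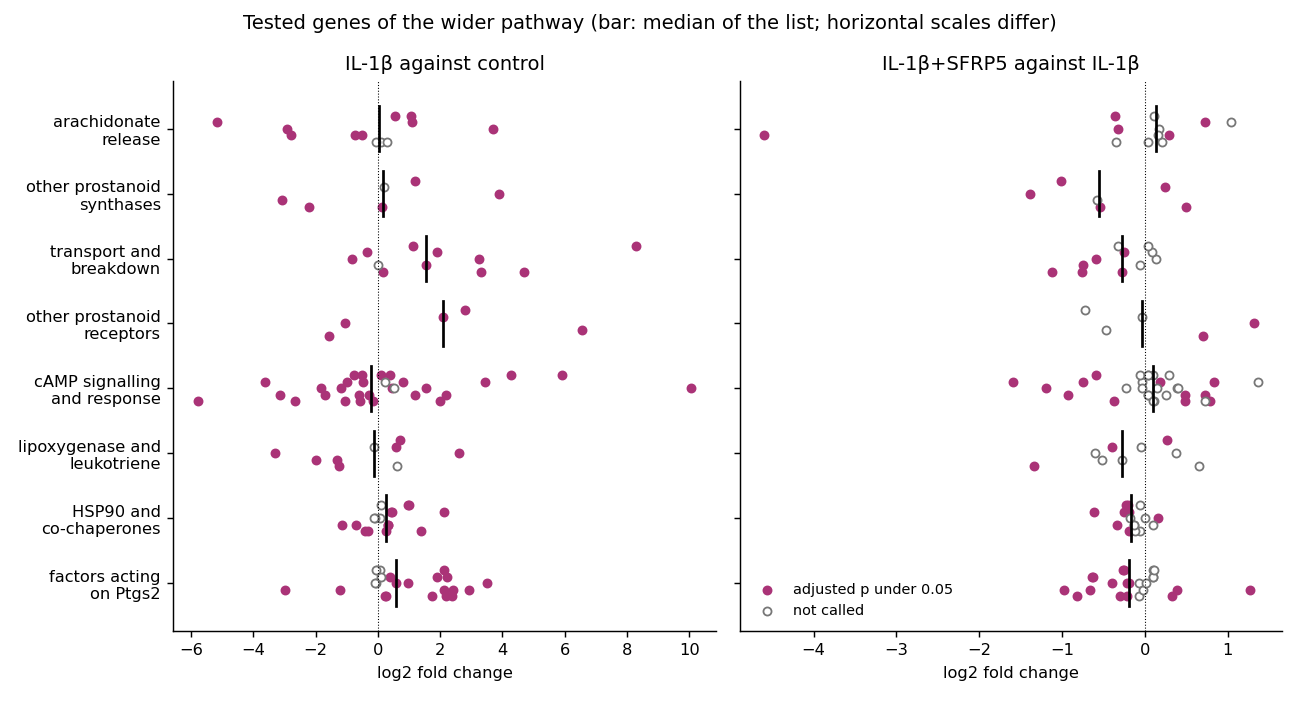
Log2 fold change (horizontal axes, of different scale) of every tested gene of 8 pathway lists, for IL-1β against control and for SFRP5 added to IL-1β; filled points passed an adjusted p of 0.05 and bars are list medians. Transport and breakdown genes have a median of 1.54 with IL-1β and -0.28 with SFRP5 added, and cAMP genes lie on both sides of 0.

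Genes of the cAMP pathway, through which EP2 and EP4 signal, went both ways. Of 30 tested, 12 rose and 16 fell with IL-1β (median -0.23), where 38.5% and 40.4% of all tested genes did. With SFRP5 6 rose and 6 fell (median 0.10), where 15.6% and 15.7% of all genes did. Areg, an EGF receptor ligand induced by cAMP, had 0 counts in control and 368 with IL-1β, at least 149.6-fold higher, and fell to 168 counts with SFRP5 (log2 change -1.19 ± 0.21, adjusted p = 0.000104). The orphan nuclear receptor Nr4a3 rose from 0.132 ± 0.108 to 8.14 ± 0.444 CPM (adjusted p = 5.01e-16), whereas the cAMP phosphodiesterase Pde7b fell from 24.1 ± 0.863 to 0.432 ± 0.133 CPM (adjusted p = 2.3e-19). With SFRP5, Rapgef4, a cAMP-activated exchange factor, fell from 2.03 ± 0.396 to 0.676 ± 0.197 CPM (adjusted p = 0.000561), and the protein kinase A subunit Prkar2b fell 1.90-fold (adjusted p = 1.78e-09).

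Of 23 tested factors known to act on Ptgs2 transcription or on the stability of its mRNA, 15 rose and 2 fell with IL-1β (median 0.58), where 38.5% and 40.4% of all tested genes did. With SFRP5 3 rose and 12 fell (median -0.19), where 15.6% and 15.7% of all genes did. With upper-quartile scaling the IL-1β counts were 14 and 6. Celf2, an RNA-binding protein, rose 11.4-fold with IL-1β to 92.2 ± 2.95 CPM, and Fos, a subunit of AP-1, fell 7.84-fold to 2.23 CPM. Cebpd, a C/EBP factor, rose from 10.6 ± 1.04 to 80.9 ± 4.90 CPM and rose again with SFRP5 to 194.5 ± 2.81 CPM (log2 change 1.27 ± 0.05, adjusted p = 4.67e-16). The NF-κB subunit gene Nfkb2 rose 5.38-fold and then fell from 119 ± 4.84 to 60.5 ± 1.18 CPM (adjusted p = 1.59e-14). Zfp36, whose protein speeds the decay of Ptgs2 mRNA, fell with SFRP5 from 34.2 ± 0.767 to 19.4 ± 0.958 CPM (adjusted p = 3.02e-09).

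The genes whose centred log2 profile over the 9 libraries lay closest to that of Ptgs2, among 13527 genes with a mean of at least 1 CPM, were Serpinb2, Mmp12, U90926, H2-Q2 and C3, at a root-mean-square distance of 0.28 to 0.40. C3, a complement component, was at 6.04 ± 0.233, 1735 ± 92.2 and 1176 ± 90.0 CPM in the 3 groups, and Mmp12, macrophage elastase, at 0.0488 ± 0.00318, 52.4 ± 2.91 and 22.5 ± 0.918 CPM. Those closest to Hpgd were Rflna, Mki67, Nuf2, Olfml2b and Syt12, at a distance of 0.41 to 0.51. Mki67, a marker of dividing cells, was at 147.9 ± 4.45, 6.53 ± 1.45 and 15.3 ± 1.91 CPM. The log2 profiles used a prior count of 2, which weighs on genes with counts as low as those of Hpgd. It also weighs on the control values of Serpinb2, H2-Q2, Mmp12 and U90926, whose control means were 0 to 0.116 CPM.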

How the data were processed

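The authors deposited 1 table of gene counts, unscaled whole numbers. According to the labels' protocols, 150 bp paired reads from a directional kit were trimmed with fastp, aligned to mm10 with STAR and quantified with RSEM, and no versions are given. How RSEM estimates became whole numbers, the annotation release and the strand setting are not stated in these sources. The deposited gene length column served for levels per kilobase. The positions in the table are not those of the reference annotation used for promoters, so no coordinates of the table are printed. 1 result on overlapping genes is not reported here. Columns were matched to samples by letter and last digit.

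Of 56748 genes, 15502 passed filterByExpr by group and were tested with edgeR 4.0.16 (R 4.3.3) in 1 fit of all 9 libraries, with TMM factors and 1 mean per group. CPM used the same factors. SE was derived from the log2 change and the F statistic. With 1 to 3 counts in a group, a ratio and its exact binomial 95% interval are given, and with 0 a bound from 3 counts over the group. In simulated data for IL-1β against control (15502 genes), the fit recovered 38 of 50 genes changed 1.5-fold, 39 of 50 changed 2-fold and 49 of 50 changed 4-fold. Of 50 lowered to 0.5-fold it recovered 37. Far fewer genes were changed there than the 78.9% called in the data, so these rates do not carry over directly. Libraries of a group all differed by more than sampling noise (chi-square per gene 2.16 to 4.50), so none was treated as a repeat.

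Members and lists were chosen with earlier results of these data known, and the motifs after the promoters were read. All members are named. From each other pathway list the named genes, apart from Zadh2, were drawn from the 3 called genes with the largest change in a comparison. Not all of these are described: Dnajb1, Hspa8 and Cdc37 of the HSP90 list and Aloxe3 and Ggt1 of the lipoxygenase list are left out. Any tested gene of the receptor and synthase lists could be named. Alternatives were other scalings, no filter, DESeq2 1.42.0, robust dispersions, 6 libraries only, a replicate block and each library left out.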

Additional observations from a re-analysis of the deposited data

How the results depend on the processing

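Over 16 alternatives the numbers of members called moved by at most 1. With IL-1β 5 to 6 were higher and 3 lower, with SFRP5 added 3 to 4 higher and 3 lower, and with both against control 5 higher and 3 lower. Of the single values of members, 423 kept direction and side of the threshold, 4 lost the call (all Hpgd with SFRP5 added), 1 gained it (Ptgs1 without IL-1β library 3) and 3 turned sign, all for the uncalled difference of Ptgs1 with SFRP5, which was 0.02 and 0.03 without IL-1β library 1 or 2, 0.074 without SFRP5 library 3, and ran from -0.10 to 0.07 with 1 library left out. The fit of only the 6 libraries compared gave no value for Hpgd with SFRP5 added, which failed its filter. Upper-quartile factors moved the median log2 change of all genes by -0.15 for IL-1β against control and by -0.13 for both against control, which left Ptgs1 at 0.01 with IL-1β. The replicate numbers did not pair the samples. Deviations of same-numbered libraries correlated at -0.036 to 0.040, and the best match in another group had the same number in 4 of 18 cases. With the replicate number as a block, 5937 genes were called higher and 6214 lower with IL-1β, and 2389 and 2391 with SFRP5 added, against 5969, 6258, 2420 and 2438 without it; no member's call changed. Depth limits Ptger2 and Hpgd, and the unstated strand setting may limit Ptger4 and Ptgs2os.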

Other observations

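The list of the lipoxygenase and leukotriene branch, which competes for arachidonic acid, also held epoxide hydrolase and Cyp2j genes, and had few counts. Of its 19 genes 9 were tested. With IL-1β 3 rose and 4 fell (median -0.13), where 38.5% and 40.4% of all tested genes did. With SFRP5 added 1 rose and 2 fell (median -0.28), where 15.6% and 15.7% of all genes did. Those called with SFRP5 added were Ephx2, Cyp2j6 and Ephx1, so no lipoxygenase or leukotriene gene passed there. Ggt5, which trims leukotriene C4, fell with IL-1β from 3.93 ± 0.103 to 0.398 ± 0.103 CPM (edgeR, adjusted p = 5.03e-08). Ephx2, the soluble epoxide hydrolase, fell in both steps, from 3.58 to 1.51 and then 0.600 CPM, with log2 changes of -1.24 ± 0.26 and -1.34 ± 0.35.

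Among HSP90 and its co-chaperones, the partners of p23 (Ptges3), 9 of 17 rose and 4 fell with IL-1β (median 0.26). Of all tested genes, 38.5% rose and 40.4% fell in that comparison. With SFRP5 added 1 rose and 8 fell (median -0.17), where 15.6% and 15.7% of all genes did. Hsp90aa1, the inducible HSP90 gene, was at 368 ± 2.95 CPM in control, 1602 ± 28.2 with IL-1β and 1045 ± 47.9 with SFRP5 (log2 changes 2.12 ± 0.04 and -0.62 ± 0.04). Fkbp4, another co-chaperone, fell with IL-1β from 68.9 to 31.1 CPM (edgeR, adjusted p = 6.58e-16).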
